A study of Mus musculus with 31 samples.

Results

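Dpp4, Spats2l, Cd55, Emp1, Plet1, Hhip, Glis3, Pla2g7, Rnf128 and Hivep2 are 10 mouse genes selected on newly made RNA, because the level of their exons or introns in that RNA had been seen higher in embryonic stem cells depleted of Dicer than in wild-type (WT) cells. They are 10 of 46130 genes of GENCODE M21 with an exonic entry in the data, and the values that picked them are given here as a description, with no test. All 10 were also detected in WT cultures, so the values describe a raised level in bulk RNA. Whether the genes were silent in some WT cells cannot be seen in such data. Dicer, encoded by Dicer1, releases mature microRNAs from their precursors.

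The cells were of the XY mouse embryonic stem cell line DTCM23/49, with a conditional Dicer1 gene, grown on gelatin in serum and LIF. The 4-thiouridine (4sU) libraries came from 2 Dicer-depleted and 2 WT cultures of that line. Depletion was induced with 800 nM 4-hydroxytamoxifen (4-OHT). The labels give day 8 for both genotypes, but a dose was recorded for the depleted cultures only. Whether the WT cultures received 4-OHT is thus unclear. If they did not, effects of the drug and of Dicer loss cannot be told apart. Each culture was labelled with 200 µM 4sU for 10 and for 15 minutes, and RNA was split into a labelled fraction, which is enriched for new RNA, and a preexisting fraction, which gave 16 libraries. A further 15 small RNA libraries, 3 each at days 0, 4, 8, 10 and 12 of treatment, held no WT cells. The labels number the cultures as biological replicates and do not say how they were separated, so the tests measure the spread between these cultures of 1 line.

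RNA made during a short 4sU pulse contains many introns that have not yet been removed, so the level of intronic sequence in the labelled fraction follows transcription and splicing, while exonic sequence in the preexisting fraction follows the pool of mature mRNA. MicroRNAs act on mature mRNA in the cytoplasm, mostly through seed matches in the 3′ untranslated region (UTR), and are not known to act on introns in this way. The deposited values are proportions of a library (given as TPM, a share scaled for transcript length, after division by 10), so every level is relative to the other RNAs of its library. In such bulk cultures, fewer cells expressing a gene and less RNA per cell cannot be told apart.

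The genotype labels were checked on Dicer1. Its preexisting exonic level was 1.20 to 3.37 TPM in the 4 Dicer-depleted libraries and 13.4 to 17.9 TPM in the 4 WT libraries, with no overlap (log2 change -2.29, limma adjusted p = 0.0347). Introns held 18.5 to 23.3% of the signal of labelled libraries in depleted cells and 15.5 to 18.4% in WT cells, and 5.37 to 6.68% against 4.41 to 5.49% in the preexisting fraction. A higher intronic share in depleted cells thus moved together with the intronic changes of single genes, and its part in them was not tested. The median labelled intronic change of all 21676 genes tested was 0.19 on the log2(TPM + 1) scale.

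Most of the 10 genes encode proteins of the cell surface or of the space outside the cell. Dpp4, on the minus strand of chromosome 2 (62330073 to 62412231, GRCm38), encodes a surface peptidase that trims incretin hormones and chemokines. Its new exonic level was 14.8, 13.4, 16.7 and 17.2 TPM in the Dicer-depleted libraries (culture 1 at 10 and 15 minutes, then culture 2), against 2.59, 2.74, 1.84 and 1.78 TPM in the WT libraries. In the preexisting fraction the levels were 21.7, 14.9, 31.9 and 26.0 TPM in depleted cells and 2.89, 4.18, 4.31 and 2.16 TPM in WT cells. In both fractions every depleted library stood far above every WT library. Preexisting Dpp4 averaged 23.6 ± 7.53 TPM in depleted cells and 3.39 ± 0.213 TPM in WT cells (SD, n = 2 cultures each), a log2 change of 2.47 (SE 0.278, limma adjusted p = 0.0347). Its introns averaged 15.6 ± 1.05 TPM in labelled RNA of depleted cells and 2.55 ± 1.67 TPM in that of WT cells, where culture 1 held more than culture 2.

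Cd55, on the minus strand of chromosome 1 (130439027 to 130462744), encodes decay accelerating factor, which limits complement on the cell's own surface. It was the most abundant of the 10 in each fraction. New exonic RNA was at 60.6, 62.8, 54.6 and 48.9 TPM in the depleted libraries and at 18.7, 16.3, 19.5 and 16.7 TPM in the WT libraries, so the depleted libraries were all higher. The preexisting exonic level was 45.6 ± 6.11 TPM in depleted and 11.7 ± 0.105 TPM in WT cells (SD, n = 2), a log2 change of 1.83 (SE 0.195, limma adjusted p = 0.0347). Words of 31 bases were taken from its coding transcript with the longest 3′ UTR and not from its other transcripts. Of these words, 17.8% are also in Cd55b, the neighbouring copy, so reads of both genes may have been divided between them. The sum of both genes was 113.9 ± 11.8 TPM in preexisting RNA of depleted cells and 26.9 ± 2.02 TPM in that of WT cells. Introns of Cd55 averaged 30.1 ± 4.83 TPM in labelled RNA of depleted cells and 8.61 ± 0.378 TPM in that of WT cells.

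Plet1, on the plus strand of chromosome 9 (50494525 to 50505482), encodes a surface protein known from trophoblast and epithelial progenitors. Preexisting exonic RNA was at 16.4, 18.3, 14.6 and 18.6 TPM in the depleted libraries and at 2.95, 4.84, 1.37 and 3.48 TPM in the WT libraries. The depleted libraries lay close together and all above WT, and the log2 change was 2.18 (SE 0.298, limma adjusted p = 0.0426). The new exonic level was 12.0 ± 0.950 TPM in depleted and 3.42 ± 1.48 TPM in WT cells. Of the 10 genes Plet1 had the smallest change in labelled introns, 1.04 on the log2 scale, with 3.01 ± 0.222 TPM in depleted and 0.938 ± 0.150 TPM in WT cells.

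Emp1, on the plus strand of chromosome 6 (135362545 to 135383173), encodes a membrane protein with several membrane spans, of the family of the myelin protein Pmp22. Its new exonic level was 12.0, 7.09, 15.1 and 14.9 TPM in the depleted libraries and 2.98, 1.85, 1.54 and 2.44 TPM in the WT libraries. Preexisting levels were 18.3, 14.5, 33.3 and 19.2 TPM in the depleted libraries and 7.32, 4.46, 1.40 and 4.87 TPM in the WT libraries. The groups did not overlap in either fraction, but the libraries within a group differed widely, and the preexisting log2 change of 2.08 (SE 0.366) had a limma adjusted p = 0.0574. Introns of Emp1 were at 7.16 ± 1.05 TPM in labelled RNA of depleted cells, 6.75-fold above the 1.06 ± 0.174 TPM of WT cells, the largest intronic fold of the 10 genes.

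Hhip, on the minus strand of chromosome 8 (79965851 to 80058006), encodes a membrane protein that binds Hedgehog ligands and so limits the pathway. Its preexisting exonic level was 8.48, 2.97, 2.20 and 4.04 TPM in the depleted libraries and 0.765, 0.958, 0.685 and 1.78 TPM in the WT libraries. The depleted libraries were all higher, although the 10 minute library of depleted culture 1 stood above the rest, and the log2 change was 1.31 (SE 0.313). Its introns were steadier, at 3.96 ± 0.278 TPM in labelled RNA of depleted cells and 1.20 ± 0.0028 TPM in that of WT cells.

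Pla2g7, on the plus strand of chromosome 17 (43568098 to 43612201), encodes the secreted enzyme that inactivates platelet activating factor. Preexisting exonic RNA was at 12.5, 19.99, 51.1 and 55.2 TPM in the depleted libraries and at 5.46, 6.75, 4.43 and 3.29 TPM in the WT libraries. Depleted culture 2 was 3.27-fold above depleted culture 1, the widest gap between cultures of any of the 10 genes in either fraction. The depleted libraries were nevertheless all above WT, with a log2 change of 2.37 (SE 0.546, limma adjusted p = 0.106). Labelled introns did not show this gap, with 9.19 and 9.64 TPM in depleted cultures 1 and 2 and 2.44 and 1.62 TPM in the WT cultures.

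Spats2l, on the plus strand of chromosome 1 (57774162 to 57948394), encodes a protein known in human cells from nucleoli and stress granules. New exonic RNA was at 23.1, 17.5, 24.4 and 17.5 TPM in the depleted libraries and at 4.05, 2.91, 2.47 and 2.46 TPM in the WT libraries. Preexisting exonic RNA was at 10.9, 14.2, 11.9 and 7.53 TPM in depleted cells and at 1.43, 0.717, 0.999 and 1.18 TPM in WT cells. Both fractions were separated without overlap, and the preexisting change was the largest of the 10, 2.53 on the log2 scale (SE 0.233, limma adjusted p = 0.0347), or 10.3-fold between the means. Introns of Spats2l averaged 21.9 ± 5.40 TPM in labelled RNA of depleted cells and 4.22 ± 0.155 TPM in that of WT cells, a level near that of its new exons in depleted cells and above it in WT cells.

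Rnf128, on the plus strand of chromosome X (139563316 to 139673145), encodes a membrane-bound ubiquitin ligase known for restraining T cells. Its preexisting exonic level was 5.08, 4.31, 6.82 and 10.1 TPM in the depleted libraries and 1.09, 0.872, 5.24 and 0.799 TPM in the WT libraries. The 10 minute library of WT culture 2 lay inside the depleted range, so Rnf128 was the 1 gene of the 10 whose preexisting groups overlapped (log2 change 1.50, SE 0.396, limma adjusted p = 0.129). In new exonic RNA the same WT culture was at 1.10 and 0.807 TPM, and the depleted libraries were at 4.33 to 8.78 TPM.

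Glis3 and Hivep2 encode zinc finger proteins of the nucleus. Glis3, on the minus strand of chromosome 19 (28258851 to 28680077), encodes a transcription factor related to the Hedgehog effectors of the GLI family and needed in pancreatic beta cells. Its preexisting exonic level was 29.5, 40.2, 23.4 and 31.6 TPM in the depleted libraries and 11.1, 7.35, 8.10 and 7.83 TPM in the WT libraries, a log2 change of 1.74 (SE 0.218, limma adjusted p = 0.0426) with no overlap. New exonic RNA showed much the same levels, 35.8 ± 0.493 TPM in depleted and 9.17 ± 1.77 TPM in WT cells.

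Hivep2, on the plus strand of chromosome 10 (13966075 to 14151374), encodes a large DNA-binding protein known as Schnurri-2. It was the least abundant of the 10 in preexisting RNA, at 0.742, 3.26, 1.95 and 1.44 TPM in the depleted libraries and 0.164, 0.528, 0.147 and 0.234 TPM in the WT libraries. The log2 change of 1.10 (SE 0.222) understates the ratio of the means, 6.88-fold, because 1 TPM was added to every value before taking logs. Hivep2 and Hhip reached the minimum mean of 1 TPM for testing only through the depleted libraries, so no test is read for them; neither was called.

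**Figure D1:**
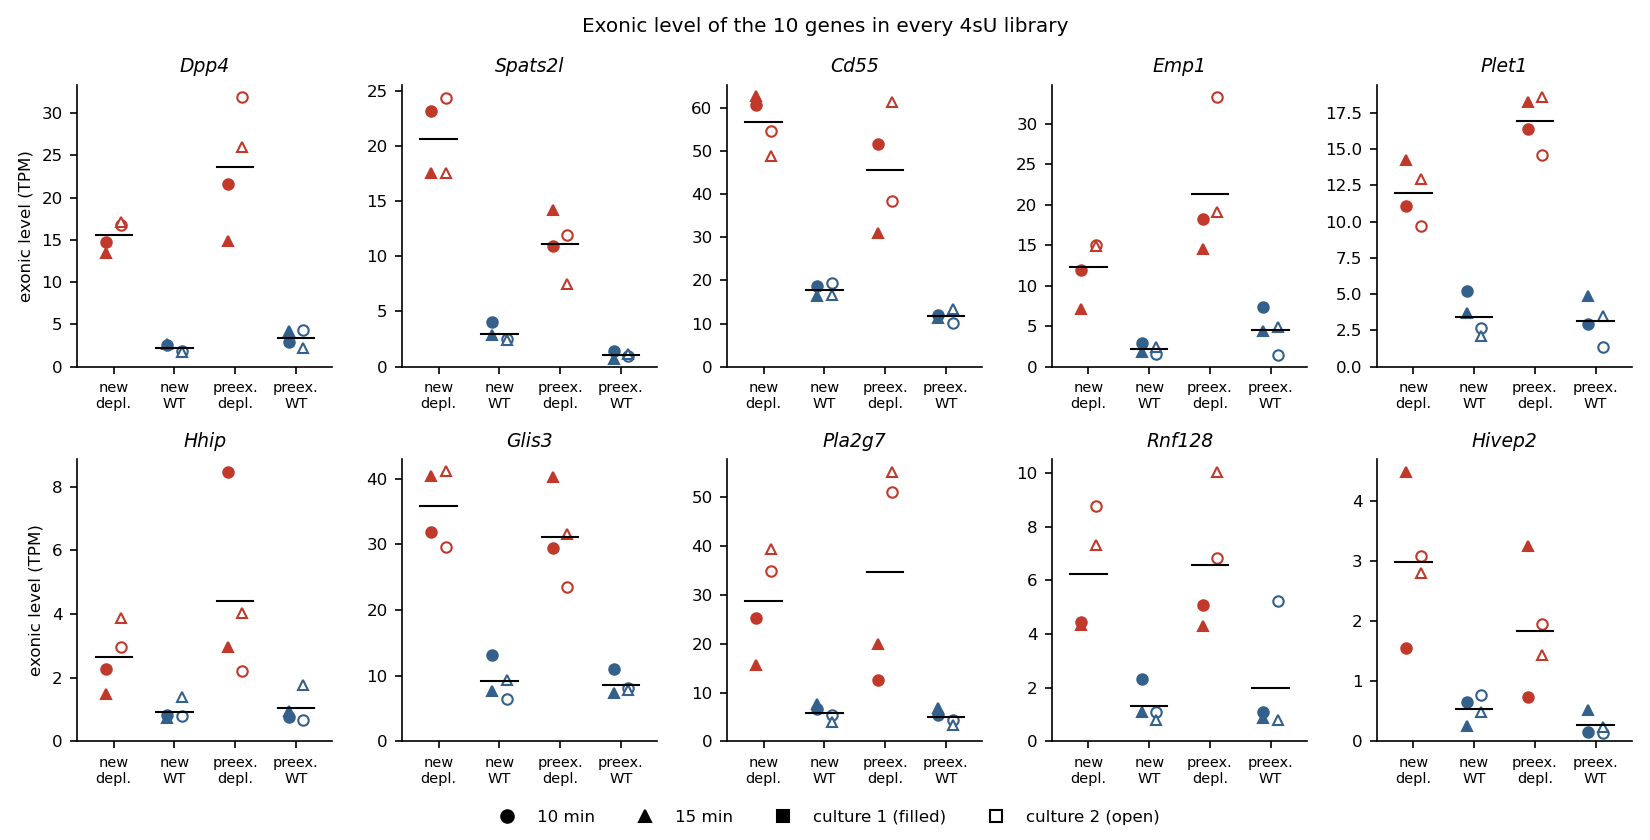
Exonic level in TPM (linear axis from 0, a scale of its own for each gene) of the 10 genes in new (labelled) and preexisting RNA of Dicer-depleted (red) and WT (blue) cells. Points are libraries, with circles for 10 and triangles for 15 minutes, filled for culture 1 and open for culture 2, and black bars are the means of 2 cultures; the groups overlap only for preexisting Rnf128, through 1 WT library at 5.24 TPM.

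Across the 10 genes, 5 passed the test in preexisting exonic RNA (Dpp4, Spats2l, Cd55, Plet1 and Glis3), all higher in depleted cells, beside 109 of 21821 genes tested (0.5%) higher and 32 lower. The median log2 change was 1.96 for the 10 genes, Hhip and Hivep2 included, and 0.035 for all genes tested. The preexisting fraction was taken from the same cultures as the new RNA that chose the genes, so these counts are no independent evidence. The SE and adjusted p of the preexisting change also rest on the spread of the labelled values. The calls also needed all 4 cultures: without either depleted or either WT culture, 0 of 21821 genes passed in limma (2135 to 3535 at an unadjusted p under 0.05), and adjusted p for the 5 genes was 0.190 to 0.388. All 10 stayed higher in depleted cells whichever culture was left out.

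All 4 depleted libraries were above all 4 WT libraries for 9 of the 10 genes in preexisting exonic RNA, where 7.03% of all genes did so. In new exonic RNA this held for all 10 (10.9% of all genes; 0.0917% were called higher), in labelled introns for all 10 (24.5%; 4.98% called higher) and in preexisting introns for 9 (18.5%; 0.00461% called higher), the exception being Emp1. The 9 genes separated in preexisting exonic RNA include Hhip and Hivep2, which reached the level for testing only through the depleted libraries. The values that chose the genes come from the new RNA of the same cultures, so nothing is read from any of these counts.

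Intronic, new and preexisting change were then set side by side. The order of the genes depended on the scale. On the log2(TPM + 1) scale Dpp4 and Spats2l had the 2 largest changes in all 3 measures, and Hhip and Hivep2 the 2 smallest in new and preexisting exons. By the ratio of means Emp1 led in labelled introns, at 6.75-fold, ahead of Dpp4 at 6.11-fold and Spats2l at 5.19-fold, and Hivep2 was not low, at 5.48-fold in new and 6.88-fold in preexisting exons. The ratio of depleted to WT means ran from 3.21 to 6.75 for labelled introns (median 4.14), from 2.82 to 6.94 for new exons (median 4.78) and from 3.28 to 10.3 for preexisting exons (median 5.04). On the log2(TPM + 1) scale the labelled intronic change was 2.30 for Dpp4, 2.11 for Spats2l, 1.98 for Emp1 and 1.79 for Pla2g7. It was 1.67 for Cd55, 1.62 for Glis3, 1.44 for Rnf128 and 1.37 for Hivep2, and 1.17 and 1.04 for Hhip and Plet1. Among 21676 genes ordered by that change the 10 genes held places 14 to 267. The genes were chosen on new RNA, introns included, so high places follow from the choice and nothing is read from them.

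**Figure D2:**
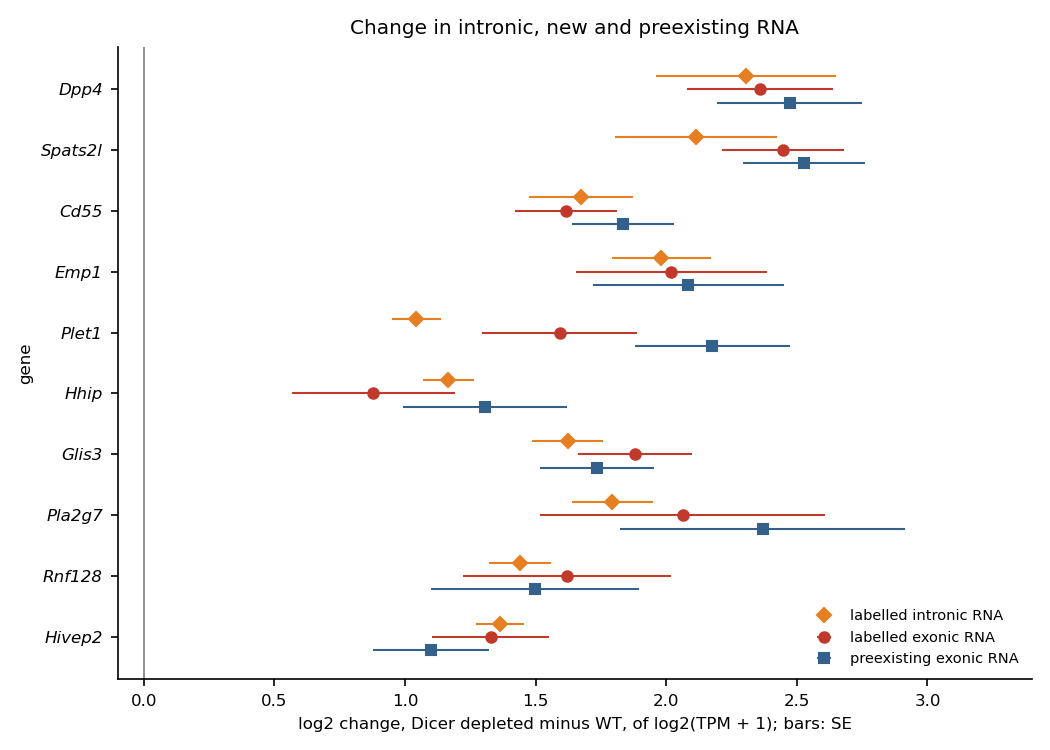
Log2 change of log2(TPM + 1), Dicer depleted minus WT, with its SE from limma, for labelled intronic (orange), labelled exonic (red) and preexisting exonic RNA (blue) of each gene. All 30 points lie above 0, between 0.88 and 2.53, and the bars of the 3 measures overlap or nearly touch for most genes, with the widest spread for Plet1.

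The change in preexisting minus the change in new exonic RNA was largest for Plet1 at 0.58, Hhip at 0.43 and Pla2g7 at 0.31 on the log2(TPM + 1) scale. Cd55 was at 0.22, Dpp4 at 0.11, Spats2l at 0.078 and Emp1 at 0.065, and 3 genes were below 0 on this scale, Rnf128 at -0.12, Glis3 at -0.15 and Hivep2 at -0.23. The ratios of means turned the direction for 2 of the 10 genes: Hivep2 was 6.88-fold higher in preexisting and 5.48-fold higher in new RNA, and Emp1 4.72-fold higher in preexisting and 5.56-fold higher in new RNA. For Spats2l the ratios were further apart, at 10.3-fold in preexisting and 6.94-fold in new RNA. The median was 0.095 for the 10 genes and -0.019 for all genes. Since the new exonic change chose the genes, this difference was not tested. The preexisting level was 0.540 to 1.74 times the new exonic level in depleted cells and 0.364 to 2.05 times in WT cells. Spats2l was at the low end and Emp1 at the high end in both genotypes.

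**Figure D3:**
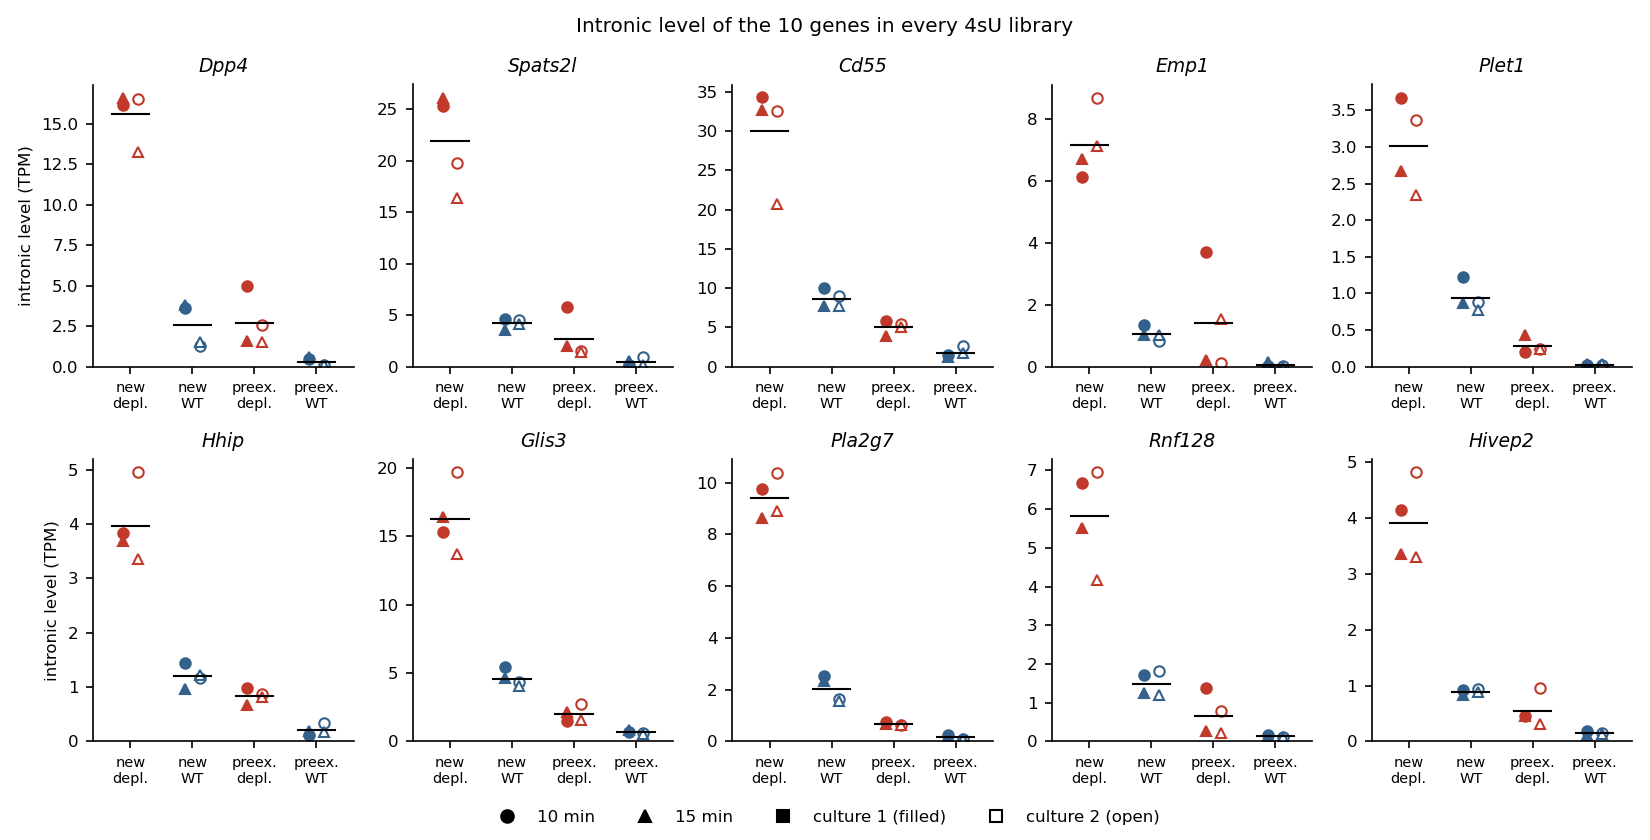
Intronic level in TPM (linear axis from 0, a scale of its own for each gene) of the 10 genes in new (labelled) and preexisting RNA of Dicer-depleted (red) and WT (blue) cells, with symbols as for the exonic levels. In every panel the new RNA of depleted cells is highest, and introns of preexisting RNA stay low, with depleted means of 0.282 TPM (Plet1) to 5.07 TPM (Cd55).

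Introns were mostly a feature of new RNA. For all 10 genes the intronic level was higher in labelled than in preexisting RNA, by 4.75 to 14.0 times in depleted cells and by 4.86 to 32.6 times in WT cells. This was not particular to them. Introns of all genes held 18.5 to 23.3% of labelled and 5.37 to 6.68% of preexisting signal in depleted libraries. In WT libraries they held 15.5 to 18.4% and 4.41 to 5.49%. The ratio of intronic to exonic level in new RNA was 0.251 to 1.50 in depleted cells and 0.274 to 1.63 in WT cells, lowest for Plet1 in both. The preexisting intronic change was 0.31 to 1.41 on the log2(TPM + 1) scale with a median of 0.72, beside 0.10 for all genes, and so below the labelled one. Except for Cd55 these introns averaged below 1 TPM in WT cells, where adding 1 TPM compresses a change. The ratios of means ran the other way, from 2.86 to 29.8 with a median of 4.50 in preexisting introns and a median of 4.14 in labelled introns.

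Genes were also read entry by entry, an entry being 1 annotated transcript or its introns. Every labelled intronic entry of every gene, from 2 of 2 for Plet1 and Hhip to 15 of 15 for Spats2l, had all depleted libraries above all WT libraries, as had 19.3% of all labelled intronic entries with a signal. Such entries share introns and are not separate observations. Preexisting exonic entries were less uniform, with 4.53% of all entries with a signal separated in this way. It held for all entries of Cd55, Plet1 and Pla2g7, for 5 of 6 of Dpp4, 11 of 15 of Spats2l, 4 of 6 of Emp1 and 6 of 10 of Glis3. It held for 2 of 3 entries of Rnf128, 1 of 2 of Hhip and 3 of 6 of Hivep2.

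**Figure D4:**
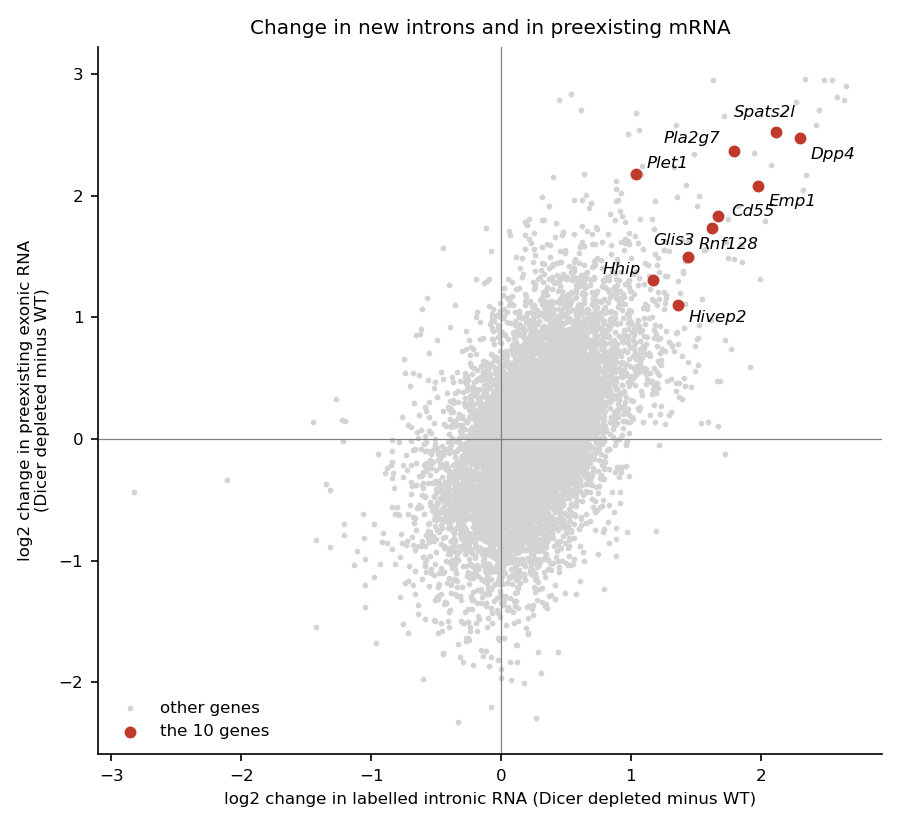
Change in labelled intronic RNA (x) and in preexisting exonic RNA (y), both as log2 change of log2(TPM + 1), Dicer depleted minus WT, for 12081 genes tested in both, with the 10 genes in red. The 10 genes lie in the upper right, at 1.04 to 2.30 on x and 1.10 to 2.53 on y, and other genes lie there with them.

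No gene of the 10 differed between 15 and 10 minutes of labelling in new exonic RNA (limma adjusted p = 0.474 to 0.961; 0.00458% of all genes passed). The log2 differences ran from -0.30 for Spats2l, lower at 15 minutes in 4 of 4 cultures, to 0.14 for Glis3, higher in 3 of 4. A p above the threshold does not show that the levels were equal.

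Reads from overlapping genes limit some of these values. Whether counting used the strand is not given in the sources used here, so reads of a gene and of one on its opposite strand cannot be told apart. Of the 10 genes, 9 overlap at least 1 other annotated gene, and Emp1 overlaps none. Plet1 lies within its antisense gene Plet1os, whose own entries averaged 0.943 TPM in preexisting RNA of depleted cells and 0.128 TPM in that of WT cells, far under the level of Plet1. For Pla2g7 the antisense gene 1700071M16Rik was at 3.13 TPM in depleted and 0.187 TPM in WT cells, and for Dpp4 the antisense gene Gm13561 was at 0.186 and 0.0195 TPM in depleted and WT cells. The overlapping genes closest in level to their partner were those of Rnf128, Hivep2 and Hhip. In new RNA Gm24380, opposite Rnf128, was at 4.20 TPM in depleted and 0.569 TPM in WT cells, where Rnf128 was at 6.22 and 1.33 TPM in depleted and WT cells. Gm26835, opposite Hivep2, was at 1.25 TPM in depleted and 0.159 TPM in WT cells, where Hivep2 was at 2.99 and 0.545 TPM. Gm27820, opposite Hhip, was at 1.23 TPM in depleted and 0.247 TPM in WT cells, where Hhip was at 2.65 and 0.939 TPM. D930032P07Rik, opposite the start of Glis3, was at 3.81 TPM in new RNA of depleted and 2.57 TPM in that of WT cells.

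Promoter windows of the 10 genes were also described. That the genes rise together in new RNA follows from how they were chosen and is no sign of a shared control. RefSeq promoters (GRCm38.p6, 250 bases before to 50 after a start) matched all 10 genes with 11 windows, 2 of them for Emp1. Both strands were searched for the letters of 6 motifs. AP-1 letters (TGANTCA) were in the windows of Emp1 and Plet1 (7.81% of 32851 windows hold them), and TEAD letters (GGAATG) in that of Dpp4 (14.7%). The letters TATAAA of a TATA box were in the windows of Dpp4 and Plet1 (13.6%). They lay at the upstream end of the Dpp4 window, far from the start, and near the start in Plet1. The letters AGATAA of a GATA site were in the window of Dpp4 (11.2%). The GLI core CCACCCA was in that of Cd55 (9.30%). The TCF/LEF letters CTTTGAT were in none (3.73%). The windows of Spats2l, Hhip, Glis3, Pla2g7, Rnf128 and Hivep2 held none of the 6. Those of Spats2l (chr1:57845321-57845620) and Rnf128 (chrX:139610370-139610669) lie inside the genes, far from the 5′ ends given above. The 5′ ends of these genes were not searched, and which start was used is not known. A match is a description of letters and shows no binding, and no single motif was common to the windows of the 10 genes. The 3 windows with AP-1, TATA or TEAD letters are shown 5′ to 3′ on the gene's strand, with those letters in capitals: Dpp4 at chr2:62412182-62412481 (minus), Emp1 at chr6:135362681-135362980 (plus) and Plet1 at chr9:50494275-50494574 (plus).
Dpp4: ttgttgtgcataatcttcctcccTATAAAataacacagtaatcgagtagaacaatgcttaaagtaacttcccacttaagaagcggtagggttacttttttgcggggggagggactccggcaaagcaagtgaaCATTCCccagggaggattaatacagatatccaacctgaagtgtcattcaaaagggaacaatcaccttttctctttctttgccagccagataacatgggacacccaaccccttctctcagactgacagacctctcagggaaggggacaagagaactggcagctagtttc
Emp1: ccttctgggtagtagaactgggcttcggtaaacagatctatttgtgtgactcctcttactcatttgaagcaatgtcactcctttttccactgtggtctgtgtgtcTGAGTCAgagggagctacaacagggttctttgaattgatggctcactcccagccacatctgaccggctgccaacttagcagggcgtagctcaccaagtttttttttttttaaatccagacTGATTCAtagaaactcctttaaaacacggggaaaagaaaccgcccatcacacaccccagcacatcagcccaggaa
Plet1: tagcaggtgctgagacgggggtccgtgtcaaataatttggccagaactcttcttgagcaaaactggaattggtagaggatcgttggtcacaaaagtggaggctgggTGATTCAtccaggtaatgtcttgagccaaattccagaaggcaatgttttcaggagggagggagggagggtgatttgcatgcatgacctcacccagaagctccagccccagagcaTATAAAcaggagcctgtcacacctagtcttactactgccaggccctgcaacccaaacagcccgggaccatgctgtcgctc

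The windows fell into a CpG-poor and a CpG-rich group. The observed to expected CpG ratio was 0.245 for Plet1, 0.258 for Spats2l, 0.260 for Dpp4, 0.310 and 0.174 for the 2 windows of Emp1 and 0.404 for Cd55. It was 0.747 for Hhip, 0.774 for Glis3, 0.789 for Pla2g7, 0.822 for Hivep2 and 0.892 for Rnf128. A ratio under 0.6 was found in 54.5% of the windows of the 10 genes and in 64.2% of all windows, so both kinds of window were present among the 10 genes. For Spats2l and Rnf128 the ratio is that of a window inside the gene.

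MicroRNA seed sites were looked for in the longest 3′ UTR of each gene, a feature that did not enter the choice of the genes. The small RNA libraries were untreated on day 0 and treated with 4-OHT on the later days. In them 5 microRNAs were counted for the miR-290 and miR-302 seed family, known from mouse embryonic stem cells. They made up 23225 ± 2517 reads scaled to all reads of a library (RPM) on day 0 (SD, n = 3 for each day). On day 0 the means of miR-182, 38078 ± 6599 RPM, and of the miR-25/92 family, 27514 ± 4580 RPM, were higher. The miR-290 and miR-302 family came to 12873 ± 973 RPM on day 4 and 512 ± 148 RPM on day 8, the day of 4sU labelling. It was at 91.2 ± 10.2 RPM on day 10 and 61.3 ± 7.98 RPM on day 12. Of the 10 genes, 2 held the 7-base site of that family, Dpp4 and Glis3, beside 17.8% of 11096 genes. Their sites are shown beside miR-295-3p, with the seed of the microRNA (bases 2 to 8) and its match in capitals, all 5′ to 3′ (RefSeq for the microRNA and GRCm38 for the sites, chr2:62330814-62330836 and chr19:28259537-28259559, both minus).
mmu-miR-295-3p: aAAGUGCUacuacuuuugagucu
Dpp4: tagaatacAGCACTTtcaccatg
Glis3: tgacataaAGCACTTtggggggg

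The miR-17 family seed, which is shifted by 1 base and whose site overlaps these, matched Dpp4, Glis3 and Rnf128 (14.5% of genes). The miR-182 site was in Spats2l, Plet1 and Glis3 (12.9%), the miR-200b site in Spats2l and Cd55 (16.3%), the miR-183 site in Dpp4 (10.6%), and the miR-25/92 and miR-15/16 sites in Hhip (7.47% and 24.3%). A let-7 site was in none (10.4%). Emp1, Pla2g7 and Hivep2 held no 7-base site of these 8 families, with 3′ UTRs of 2033, 222 and 1638 bases. Shorter 6-base sites were present in Emp1, for miR-17, miR-182, miR-183 and miR-15/16. Hivep2 held them for miR-25/92, miR-200b and the family of miR-295-3p, and Pla2g7 held none. Preexisting levels of Emp1, Pla2g7 and Hivep2 were 4.72-fold, 6.97-fold and 6.88-fold higher in depleted cells. Those of the genes with a 7-base site were 3.28-fold (Rnf128) to 10.3-fold (Spats2l) higher. The lack of a 7-base match says only that these letters were not in this UTR. Whether microRNA loss acted on these genes was not tested.

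Genes related to the 10 were examined next, by lists that were assembled with earlier results of these data known. Among 26 close relatives (Dpp4-like peptidases, Spats2, surface regulators of complement, Emp and Pmp22 proteins, Glis, Hivep and Rnf relatives, and phospholipases and platelet activating factor hydrolases), 19 were tested and 0 passed in preexisting exonic RNA (limma; 109 of 21821 genes passed higher), with a median log2 change of 0.12. The largest values were 1.14 for Pafah2, 0.86 for Rnf13 and 0.85 for Pafah1b2, with limma adjusted p of 0.287, 0.148 and 0.176. Hivep1, the nearest relative of Hivep2, was at 2.48 ± 0.275 TPM in depleted and 1.68 ± 0.375 TPM in WT cells.

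Of 16 Hedgehog pathway genes 11 were tested and 0 passed in limma, with a median of 0.21. The ligands Shh, Ihh and Dhh were at or below 0.217 TPM in both genotypes, and Ihh was at 0 in every preexisting library. The receptor Ptch1, which is itself a target of the pathway, was at 64.1 ± 12.4 TPM in depleted and 62.9 ± 28.9 TPM in WT cells. The largest changes were -0.86 for the inhibitor Sufu, 0.59 for the effector Gli3 and 0.43 for the ligand acyltransferase Hhat (limma adjusted p = 0.163, 0.310 and 0.455).

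Complement regulators were read because of Cd55. Of 9 genes reported 7 were tested and 2 passed, both higher in depleted cells: Cd55 and its copy Cd55b. Cd55b was at 68.3 ± 5.74 TPM in depleted and 15.2 ± 1.92 TPM in WT cells (log2 2.02, limma adjusted p = 0.0347), with the uncertainty of shared sequence given for Cd55. Serping1, the inhibitor of the first complement proteases, was at 11.7 ± 0.325 TPM in depleted and 3.83 ± 0.519 TPM in WT cells (log2 1.41, limma adjusted p = 0.0888). The median of the 7, Cd55 included, was 0.58 beside 0.034 for all genes matched. The surface inhibitor Cd59b was at 26.3 ± 6.47 TPM in depleted and 23.9 ± 4.59 TPM in WT cells. Without any 1 of the 4 cultures no gene of the list passed.

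**Figure D5:**
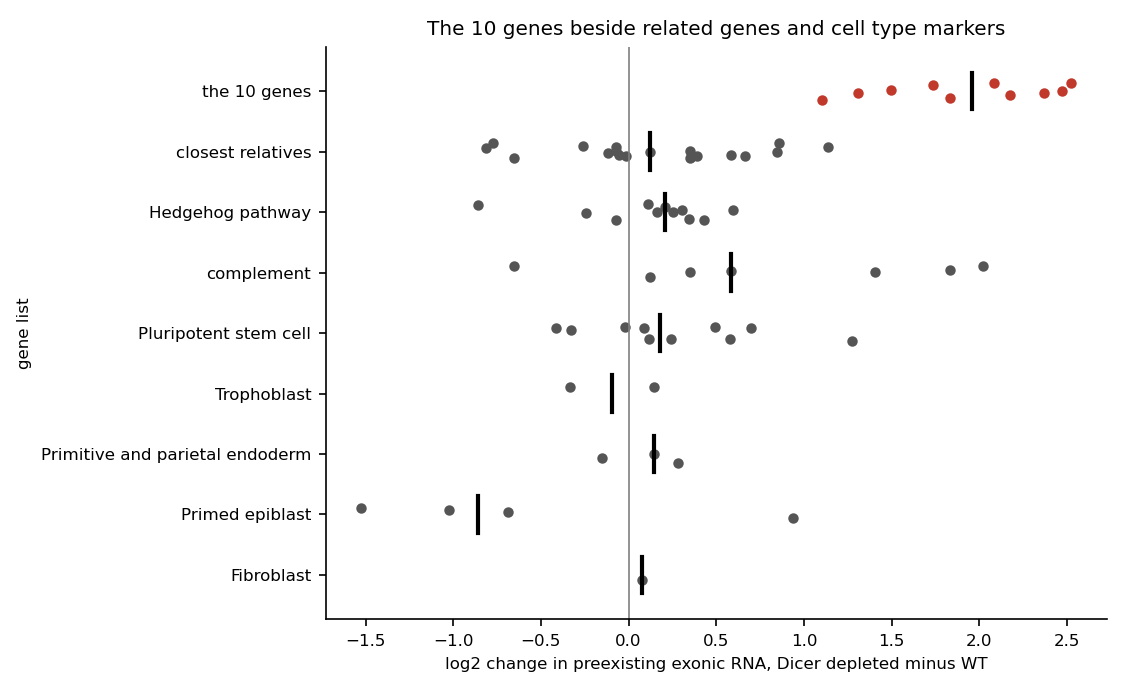
Log2 change in preexisting exonic RNA, Dicer depleted minus WT, for each tested gene of the 10 genes (red) and of the related gene and marker lists (grey), with list medians as black bars; vertical scatter within a row carries no value. The 10 genes lie between 1.10 and 2.53, and of the other lists only the complement list, which also holds Cd55, reaches above 2.

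Because Plet1 and some of the others are known from other cell types, markers of those types were read in preexisting RNA. Of 10 trophoblast markers 2 reached the level for testing and 0 passed in limma (0.15 for Tfap2c, -0.34 for Ascl2). The summed level of the trophoblast markers was 30.2 to 50.1 TPM in depleted libraries and 27.9 to 45.4 TPM in WT libraries, most of it Tfap2c, and Cdx2 averaged 0 and 0.0070 TPM in depleted and WT cells. Several markers under the level for testing had higher means in depleted cells: Hand1 was at 1.28 ± 0.266 TPM in depleted and 0.0922 ± 0.102 TPM in WT cells, Krt8 at 0.992 ± 0.272 and 0.203 ± 0.209 TPM, Gata3 at 1.20 ± 0.677 and 0.314 ± 0.334 TPM, and Krt18 at 0.982 ± 0.592 and 0.583 ± 0.087 TPM in depleted and WT cells. Eomes and Cdx2 went the other way, with Eomes at 0.949 ± 1.11 TPM in depleted and 1.34 ± 0.411 TPM in WT cells. These markers were not tested, nor was their part in the level of Plet1. Primitive and parietal endoderm markers summed to 46.7 to 74.2 TPM in depleted and 34.6 to 58.2 TPM in WT libraries, most of it Lamb1 (log2 0.28), with Lama1 at -0.15 and Dab2 at 0.14 (0 of 3 tested passed, of 12 listed) and with Foxa2 at 0. Fibroblast markers summed to 2.88 to 5.81 TPM in depleted and 3.14 to 6.76 TPM in WT libraries, with Col3a1 and Lum at 0 and Fbln1, the 1 of 8 tested, at 0.076. Markers of 2-cell-like cells stayed at 0.024 to 1.05 TPM in depleted and 0.444 to 1.11 TPM in WT libraries, with 0 of 7 tested and Tcstv3 at 0.

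Markers of pluripotent stem cells were present in both genotypes. Their sum was 884 to 980 TPM in depleted and 667 to 858 TPM in WT libraries, and 0 of 10 passed in limma, with 1.28 for Tbx3, 0.70 for Klf2 and 0.58 for Tfcp2l1 as the largest changes. Markers of primed epiblast were lower as a sum, with 187 to 331 TPM in depleted and 453 to 579 TPM in WT libraries. Most of this sum was Dnmt3b, at 206 ± 43.5 TPM in depleted and 417 ± 11.8 TPM in WT cells. Otx2 was at 45.5 ± 30.4 TPM in depleted and 62.2 ± 6.22 TPM in WT cells. Of 6 listed, 4 were tested and 1 fell, the Wnt effector Lef1, at 13.7 ± 2.08 TPM in depleted and 36.4 ± 3.01 TPM in WT cells (log2 -1.52, limma adjusted p = 0.0461). Dnmt3b was at -1.02 and Sall2 at 0.94 (limma adjusted p = 0.0575 and 0.141). The part of cell state in the levels of the 10 genes was not tested.

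Genes with the most similar profile were found by Pearson's r of log2(TPM + 1) over the 16 libraries with the mean standardised profile of the 10 genes, among genes of at least 5 TPM. The 10 genes had r of 0.800 (Hhip) to 0.960 (Dpp4) with this mean, which includes each of them, so a high r is built in. The nearest other genes were 9530068E07Rik at 0.962, Gsto1 at 0.960, Itgav at 0.959, Cep55 at 0.956 and Prss35 at 0.952. The 16 libraries come from 4 cultures and share them between fractions, so r is given with no test. 9530068E07Rik was at 130.3 ± 23.9 TPM in preexisting RNA of depleted cells and 17.5 ± 1.74 TPM in that of WT cells, with a labelled intronic change of 0.54. Itgav, the integrin alpha V chain, was at 33.1 ± 1.22 TPM in depleted and 12.8 ± 0.543 TPM in WT cells, with a labelled intronic change of 1.36.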

How the data were processed

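Newly made and preexisting RNA were measured in 16 4sU libraries and small RNA in 15. For 4sU RNA the deposited values are a signal that sums to the same total in every column; they are named TPM, and they were divided by 10. Per the labels, ribosomal reads were removed with STAR 2.5.0 and RSEM quantified the remaining reads, aligned by STAR, on intronic and exonic sequences; the annotation and any use of strand are not given in the sources used here. Small RNA values are deposited raw counts per microRNA from HTSeq, after cutadapt 1.8 and Bowtie2, per the submitters' processing notes; they were scaled to all reads of a library (RPM) and not tested. The depth behind the 4sU values is unknown.

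Entries were matched to GENCODE M21 (110366 of 121429 exonic and 89935 of 91702 intronic) and summed per gene; unmatched entries were tested but not named. Log2(TPM + 1) was averaged over 10 and 15 minutes per culture. The 8 culture means of both fractions were fitted together in limma 3.58.1 (trend), for genes with a mean of at least 1 TPM (exonic) or 0.1 TPM (intronic). The fit had no term for culture, although both fractions came from the same cultures, so the 8 values are not independent. Each gene thus has 1 SE for both fractions, which also rests on its labelled values. P-values are two-sided and adjusted by Benjamini and Hochberg over all genes, with a threshold of 0.05. The SD is over 2 cultures. The fit was checked on simulated data. Adding 1 TPM understates the change of low genes.

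The 10 genes and all lists were chosen with earlier results of these data known. An item is not reported here and was taken out of its list. Named besides them are Dicer1, the genes of each list past the threshold or with the 3 largest changes, and the 5 genes of nearest profile; Shh, Ihh, Dhh, Ptch1, Cd59b and Hivep1 were added for their roles after their values were seen, as were single markers and overlapping genes. Alternatives changed the pseudocount, the filter, the scaling, the samples and times in the fit, and a replicate block. R 4.3.3, Python 3.11.15, numpy 2.4.6, pandas 2.3.3 and matplotlib 3.10.9 were used.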

Additional observations from a re-analysis of the deposited data

How the results depend on the processing

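The 10 genes stayed higher in Dicer-depleted cells in preexisting exonic RNA under all 12 alternatives (log2 0.93 to 3.25). The 5 calls held with a pseudocount of 0.1 TPM, median centring, rescaling to rows of the same kind and the replicate block, and were lost with no filter (smallest adjusted p = 0.102), with the 2 compared groups alone (0.440), at 10 minutes (0.116) or 15 minutes alone (0.0812), and without any 1 culture, where a lone culture is assumed to vary like the others.

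The 141 genes called in preexisting exonic RNA became 0 with no filter, 0 with the 2 groups alone, 1 at 10 minutes, 7 at 15 minutes and 0 to 0 without a culture. The 28 called in labelled exonic RNA became 0 with a pseudocount of 0.1, 86 with no filter, 0 with the 2 groups alone and 0 to 76 without a culture. The 1118 called in labelled intronic RNA became 0 with a pseudocount of 0.1, 46 centred, 0 rescaled, 0 with the 2 groups alone, 135 at 10 minutes, 68 at 15 minutes and 1 to 29 without a culture. The 1 called in preexisting intronic RNA became 2 with a pseudocount of 0.1, 2 centred, 5 rescaled, 0 with the 2 groups alone, 0 at 15 minutes and 0 to 9 without a culture. The 1 gene called between 15 and 10 minutes became 0 with no filter and 0 to 3 without a culture. Genes of the 10 with a miR-290 and miR-302 site numbered 6 in place of 2 with a 6-base site (33.1% of genes). The cause was not tested.

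The replicate block raised the preexisting exonic calls to 267. Replicate numbers are not shown to pair cultures: differences between replicates of the genotypes correlated at 0.264 in preexisting and 0.148 in labelled RNA over 11795 genes, with 2 pairs only. The block changed no call among the 10 genes.

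The small 15 minus 10 minute differences turned sign for Plet1 (-0.0019) and Hivep2 (-0.074) with a pseudocount of 0.1, and for some genes without 1 culture. Without a culture they ranged from -0.041 to 0.021 for Dpp4, from -0.094 to 0.16 for Plet1, from -0.059 to 0.21 for Hhip and from -0.25 to 0.25 for Hivep2. With no depth known for 4sU, no limit from counting can be given.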
